A study of Rattus norvegicus with 26 samples.

Results

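The genes described here encode the subunits of mitochondrial oxidative phosphorylation, together with cytochrome c and a pair of regulators of mitochondrial biogenesis, followed while rat progenitor cells were driven toward smooth muscle and compared with primary smooth muscle. Members were taken by name: every gene probe whose name starts with Nduf, Uqcr or Atp5, or with Cox and a digit from 4 to 8, the names Sdha, Sdhb, Sdhc and Sdhd, and Cycs, Cyc1, Tfam and Ppargc1a. This gave 107 of the 41012 gene probes and 85 of the 35287 gene names on the array, and each gene was read from its brightest probe. They divide into 33 genes of complex I, 4 of complex II, 8 of complex III, 16 of complex IV, 15 of the ATP synthase, cytochrome c (Cycs), the regulators Tfam and Ppargc1a, and 2 assembly factors of complex I (Ndufaf1 and Ndufaf2). The other 4 genes carry such names without being subunits in the groups above: Atp5s, Atp5sl, Cox4nb and Cox7a2l. Ndufa4 was counted with complex IV, where its protein is now placed. No probe was named Cox6b1, Cox7a1 or Ndufa4l2.

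Complexes I and II take electrons from NADH and from succinate, complex III passes them to cytochrome c, and complex IV hands them to oxygen. The protons pumped on the way drive the ATP synthase, whose ring of c subunits turns as they flow back. All of these complexes except complex II hold subunits made inside the mitochondrion as well as subunits encoded in the nucleus, and several complex IV subunits come in tissue isoforms, among them a heart and skeletal muscle form of subunit VIa. Vascular smooth muscle is known for meeting its energy need by oxidative phosphorylation alongside a marked aerobic glycolysis.

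RNA of 26 samples was hybridized, 1 sample per array, to an Agilent whole rat genome array in 1 colour. Rat multipotent adult progenitor cells (rMAPC), Oct4-expressing cells grown from bone marrow of female Fischer rats, were kept for 6 days in serum-free basal rMAPC medium with TGFβ1 and PDGF-BB and sampled on days 0, 2, 4 and 6, with 3 arrays per line and day. Per the methods this took place at an oxygen level below that of air, and primary aortic smooth muscle cells were grown with serum at an oxygen level near that of air. The study gives the primary RNA on the arrays both as bought and as taken from such cultured cells, so cell type, serum and oxygen cannot be told apart between primary smooth muscle and the lines. No array held cells kept to days 2, 4 or 6 without TGFβ1 and PDGF-BB. In every change from day 0, the cytokines, plating in the differentiation medium and time in culture therefore cannot be told apart. The 2 lines are single clones: Cl19 came from bone marrow of 3 week old rats and 3c3 from bone marrow at E18. Primary smooth muscle RNA, the study's positive control, was run on 2 arrays, and its source is given as rat aortic RNA from Tebu Bio in the labels and as Cell Applications in the methods. All p-values below measure the spread between these arrays, and with 1 clone per age they do not measure the spread between animals. The methods call the 3 arrays per line and day biological replicates, and give the primary arrays only as a duplicate.

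Probe signals well above background, by the scanner software's own call, made up 52.7% to 61.4% of gene features on the Cl19 arrays, 43.2% to 57.1% on the 3c3 arrays, and 43.6% and 44.5% on the primary arrays. No gene feature was saturated. The number of arrays limits the precision of each value. Levels are given as log2 of the quantile-normalized signal, changes as log2 differences, and a gene is said to rise or fall only where limma's adjusted p is under 0.05. Of the 85 members 79 were bright enough to be tested, which took signals well above background throughout some group among the 9, and 74 were so on all 26 arrays. The untested members were Cox6c1, Cox7c, Cox8b, Cox8c, Ppargc1a and Ndufaf2.

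The 26 arrays sat on 7 slides. Each replicate of a line had its own slide with the 4 days side by side, so a day 6 array can be set against the day 0 array of its slide, and "3 of 3 slides" below counts these pairs. Each day always had the same position on the slide, and Cl19, 3c3 and primary arrays each had slides and a scan day of their own. Position and day therefore cannot be told apart, nor can line or cell type and slide or scan day. Less RNA per cell and fewer cells that hold it cannot be told apart in these bulk samples.

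One array stood apart from its label. Cl19 day 2 replicate 1 lay at a mean distance of 0.45 (root mean square of log2 differences over the tested probes) from the 3c3 day 2 arrays and of 0.90 from the other 2 Cl19 day 2 arrays. Day 2 medians, counts and named changes from day 0 in Cl19 are therefore given with and without it under quantile normalization. Under the other scalings described below most are given with it only.

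Marker genes set the frame for the labels. In Cl19, 5 of 7 smooth muscle markers were detected on day 0, with a summed level of 1856 to 2242 normalized signal units per array and Smtn as the most abundant, and 6 of 7 on day 6, with 61160 to 73136 and Tagln as the most abundant. In 3c3 the count was 5 on both days, and the summed level was 1472 to 1714 on day 0 and 29042 to 46100 on day 6. Primary arrays had 7 of 7, at 98046 and 100467. The 6 rMAPC markers were all detected on day 0 in both lines, at 37175 to 40321 in Cl19, led by Gata4, and at 40070 to 44163 in 3c3, led by Gata6. On day 6 they summed to 15695 to 23882 in Cl19, where Pou5f1 was no longer detected, and to 28693 to 30492 in 3c3, with Foxa2 the most abundant in both. In primary RNA 3 of the 6 were detected, at 1233 and 1257, led by Gata6, and Pou5f1, Gata4 and Sox7 were not.

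Markers of other cell types were counted as well. The 8 heart and skeletal muscle markers summed to 1232 to 1332 on day 0 and 4312 to 13802 on day 6 in Cl19, and to 559 to 799 and 1032 to 1723 in 3c3, always with Tnnt2 the most abundant, with 4 detected on day 0 and 5 on day 6. In primary RNA 3 of these 8 were detected, led by Mb, at 401 and 404. Of 5 fat markers 2 were detected in Cl19 on days 0 and 6, at 64.0 to 89.1, led by Cidea, and then 25.9 to 38.5, led by Cidec. In 3c3 1 was detected on day 0, at 63.3 to 101, and 2 on day 6, at 167 to 227, both times led by Cidea. Cidea was the only one of the 5 detected in primary RNA, at a summed level of 1355 and 1393. Endothelial markers were 4 of 4 on day 0 in both lines, at 208 to 252 in Cl19, led by Vwf, and 114 to 144 in 3c3, led by Pecam1. They were 1 of 4 (Vwf) on day 6 in Cl19, at 48.2 to 65.6, 2 of 4 on day 6 in 3c3, led by Vwf, at 86.2 to 128, and 0 of 4 in primary RNA, at 24.4 and 36.7. Blood markers were 1 of 4 (Cd68) on day 0, at 107 to 155 in Cl19 and 92.2 to 128 in 3c3, 2 of 4 (Cd68 and Lyz2) on day 6, led by Cd68 at 123 to 192 in Cl19 and 141 to 173 in 3c3, and 2 of 4 in primary RNA, led by Ptprc at 59.2 and 67.4. Their part in the results below was not tested.

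The first question is what happens to these genes over the days of differentiation, compared with undifferentiated cells of the same line. Across days 2, 4 and 6 together, 34 of the 79 tested members changed in Cl19, against 54.3% of all tested probes, and 41 of 79 in 3c3, against 50%. The members' share is thus near or below that of the whole array. By complex, the changed members were 17 of 33 in complex I in Cl19 and 20 in 3c3, 3 of 4 and 2 of 4 in complex II, 0 of 8 and 4 of 8 in complex III, 4 of 12 and 4 of 12 in complex IV, and 8 of 15 in the ATP synthase in each line. Beside the 0 of complex III in Cl19 by limma, 1 of the 8 had an unadjusted p under 0.05, and on day 4 alone 2 of the 8 fell. On day 6 alone, members at an unadjusted p under 0.05 numbered 12 up and 24 down in Cl19, where 23.9% and 33.2% of all tested probes did so, and 8 up and 32 down for 3c3, against 21.6% and 32.3%.

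On days 4 and 6 more members fell than rose, and the same held for all tested probes. On day 2 more members rose than fell, though not in Cl19 with the 75th percentile scaling described below. On day 2, 7 members rose and 3 fell (Atp5g1, Ndufa10l1 and Ndufv2) in Cl19, where 11.2% of tested probes were higher and 11.5% lower, and in 3c3 12 rose and 1 fell (Tfam), where the shares were 9.80% and 9.27%. Leaving out Cl19 day 2 replicate 1, 4 rose (Cox6b2, Ndufa4, Ndufb11 and Ndufv3l) and the same 3 fell in Cl19, where the shares were 11.9% and 13%. On day 4 there were 5 rises and 28 falls in Cl19, against 20.2% and 27.1%, and 5 rises and 21 falls in 3c3, against 14.8% and 22.2%. On day 6 there were 10 rises and 23 falls in Cl19, against 22.0% and 30.3%, and 6 rises and 27 falls in 3c3, against 19.7% and 28.6%.

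The median change of the tested members was 0.01 on day 2, −0.23 on day 4 and −0.17 on day 6 in Cl19, and 0.07, −0.17 and −0.30 in 3c3. All tested probes had medians of −0.07, −0.16 and −0.20 in Cl19 and −0.07, −0.16 and −0.21 in 3c3. Without Cl19 day 2 replicate 1 the day 2 median of that line was 0.02. The middle 50% of members on day 6 ran from −0.52 to 0.15 in Cl19 and from −0.63 to 0.07 in 3c3, and that of all tested probes from −0.80 to 0.53 and from −0.78 to 0.47.

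How far the members as a group moved depends on the scaling between arrays. With arrays scaled to their 75th percentile the day 6 medians were −0.49 in Cl19 and −0.57 in 3c3, in the authors' unscaled log2 table −0.17 and −0.26, and after another background correction (normexp) −0.13 and −0.22. The median of all tested probes was −0.23 and −0.22, 0.10 and 0.09, and −0.06 and −0.06 under these same settings. Relative to all tested probes, the members' day 6 median was 0.03 in Cl19 and −0.09 in 3c3 with quantile normalization, −0.26 and −0.35 with the 75th percentile or the unscaled table, and −0.07 and −0.16 with normexp, so that for Cl19 even its sign turned. The day 2 median also turned, to −0.17 in Cl19 and −0.10 in 3c3 with the 75th percentile, where the day 4 medians were −0.56 and −0.47, and it was 0.06 and 0.20 in the unscaled table and 0.02 in Cl19 after normexp. Of the members called on day 6, 30.3% were higher in Cl19 and 18.2% in 3c3, against 6.98% and 2.22% with the 75th percentile, where 21.5% of all tested probes rose and 32.7% fell in Cl19 and 18.9% and 30.3% in 3c3. On day 2 that scaling gave 1 rise (Cox6b2) and 8 falls in Cl19, where 10.6% of all tested probes rose and 13.6% fell, and 3 rises (Atp5s, Cox6b2 and Ndufv3l) and 2 falls (Ndufa5 and Tfam) in 3c3, against 9.16% and 11.1%. It gave 1 rise and 14 falls in Cl19 without day 2 replicate 1, against 11.1% and 16.9%, with a median of −0.28.

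**Figure D1:**
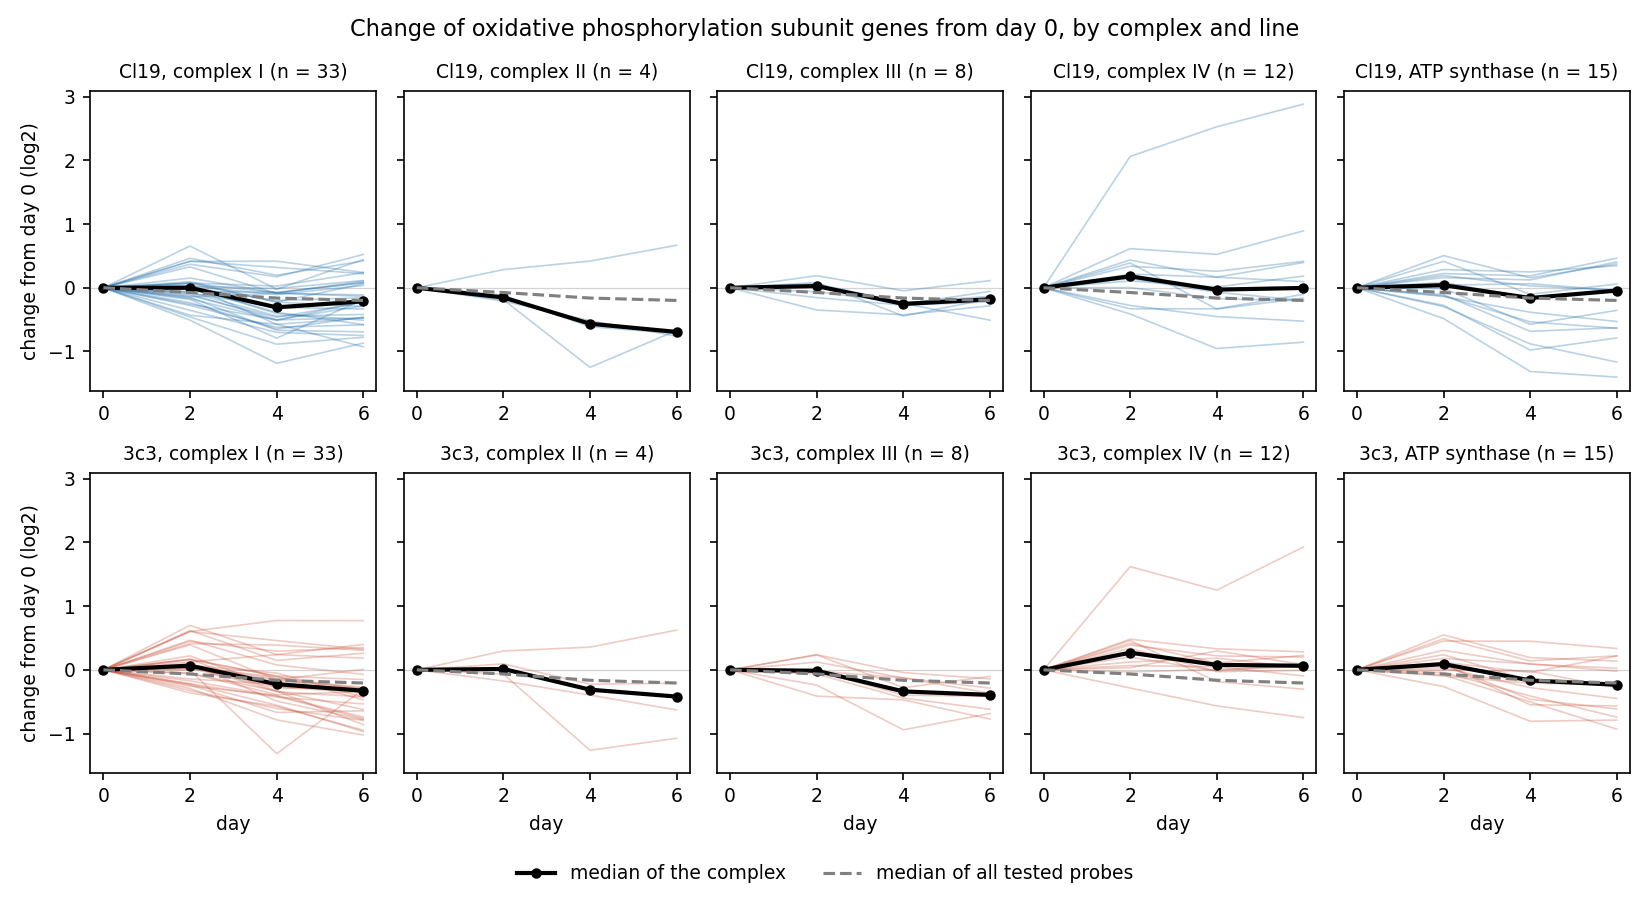
Change from day 0 in log2 (vertical axis) over days 0, 2, 4 and 6 (horizontal axis) for each tested gene of the 5 complexes in Cl19 (top) and 3c3 (bottom), with a thin line per gene, the median of the complex in black and that of all tested probes dashed. By day 6 the median of complex II lay at −0.69 in Cl19 and −0.42 in 3c3 and that of complex IV at −0.00 and 0.06, against −0.21 and −0.22 with 75th percentile scaling.

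Calls on day 6 were also set side by side for the lines. Of the 79 members 19 fell in both lines, as 20.4% of all tested probes did, 3 rose in both (Sdhb, Cox6b2 and Atp5l), as 13.2% did, 0 moved in opposite directions past limma's test, as 1.93% did, and 35 were called in neither line, as 35.0% were. A further 4 fell and 7 rose in Cl19 with no call in 3c3, against 8.57% and 8.16%, and 8 fell and 3 rose in 3c3 with no call in Cl19, against 7.57% and 5.18%. Because a call in 1 line alone does not show a difference between them, the lines are compared by a test of their own further on. Under all 4 scalings, 15 members fell in both lines, as 13.2% of all tested probes did: Ndufs1, Ndufs3, Ndufs7, Ndufs8, Ndufv2, Ndufa9, Ndufa10l1 and Ndufb6 of complex I, Sdha of complex II, Atp5a1, Atp5c1, Atp5f1, Atp5g1 and Atp5g3 of the ATP synthase, and Cox4nb, now named Emc8 and known as part of a membrane complex of the endoplasmic reticulum. Only Cox6b2 rose in both lines under all 4, as 9.82% of all tested probes did. Both lists were drawn up after the values were seen.

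Complex I, the entry point for electrons from NADH, had a median change of −0.00 on day 2, −0.31 on day 4 and −0.21 on day 6 in Cl19, and of 0.07, −0.23 and −0.33 in 3c3. Its 33 genes spread on day 6 from −0.93 to 0.52 in Cl19 and from −1.02 to 0.77 in 3c3. In Cl19 2 rose (Ndufa2 and Ndufv3l) and 11 fell, and in 3c3 3 rose (Ndufa1, Ndufb11 and Ndufb5) and 14 fell. Ndufa2 in Cl19 and Ndufb11 and Ndufb5 in 3c3 missed the test with 75th percentile scaling (0.17, −0.03 and 0.02, adjusted p = 0.526, 0.867 and 0.940). They also missed it in the unscaled table (adjusted p = 0.0605, 0.107 and 0.0971). Without Cl19 day 2 replicate 1 the day 2 median in Cl19 was −0.04. Relative to all tested probes the day 6 median was −0.01 in Cl19 and −0.12 in 3c3, and −0.29 and −0.43 with 75th percentile scaling, where the medians themselves were −0.23, −0.64 and −0.52 on days 2, 4 and 6 in Cl19 and −0.07, −0.48 and −0.65 in 3c3. In the unscaled table the medians in 3c3 were 0.23 on day 2 and −0.14 on day 4.

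Ndufs1, the largest subunit and a carrier of iron-sulfur clusters in the arm that takes up NADH, is probed on chromosome 9 (rn4, chr9:61811846-61811905). Its level was 10.67, 10.60 and 10.68 on day 0 and 10.00, 9.61 and 10.09 on day 6 in Cl19. In 3c3 it was 10.97, 10.56 and 10.71 on day 0 and 9.95, 9.46 and 9.99 on day 6. Every day 6 array lay below every day 0 array of its line, and both primary arrays, at 8.51 and 8.46, lay lower still. Ndufs1 fell by 0.75 (SE 0.17, adjusted p = 0.000863) in Cl19 and by 0.95 (SE 0.17, adjusted p = 0.000120) in 3c3, lower in 3 of 3 slides each.

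Ndufa7, an accessory subunit, had the largest mean fall of the complex I genes that were well above background on all day 0 and day 6 arrays. It read 7.62, 8.25 and 7.61 on day 0 and 6.97, 7.09 and 6.81 on day 6 in Cl19, and 7.62, 8.40 and 7.83 against 7.01, 7.14 and 6.63 in 3c3. The groups did not overlap in either line, although replicate 2 was highest on day 0 in both. Its change was −0.87 in Cl19 (SE 0.29, adjusted p = 0.0180, lower in 3 of 3 slides) and −1.02 in 3c3 (SE 0.29, adjusted p = 0.00722, lower in 3 of 3 slides). In the authors' unscaled table it was −0.51 and −0.71 and passed the test in neither line (adjusted p = 0.299 and 0.147).

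Other subunits of the NADH and quinone arms moved the same way as Ndufs1. Ndufv2, which carries an iron-sulfur cluster, fell by 0.93 in Cl19 and 0.77 in 3c3, and was already lower on day 2 in Cl19 (−0.43, SE 0.11, adjusted p = 0.00554, lower than every day 0 array in 3 of 3 arrays, and −0.46, adjusted p = 0.00765, without replicate 1 of that day). Ndufs8, which carries iron-sulfur clusters in the quinone arm, fell by 0.69 and 0.86, and Ndufa9, an accessory subunit there, fell by 0.58 and 0.97. Ndufs3 was lower by 0.46 in Cl19 and 0.64 in 3c3, and Ndufs7 by 0.47 and 0.54. These 5 genes were lower in 3 of 3 slides in both lines, and they were picked out after their values were seen.

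A few small accessory subunits went the other way, most of them early. Ndufa1 is a membrane subunit needed for assembly of the complex and is encoded on the X chromosome. In 3c3 it stood at 13.10, 13.45 and 13.44 on day 0, at 13.92, 13.88 and 14.00 on day 2, and at 14.09, 14.00 and 14.22 on day 6. In Cl19 it stood at 13.28, 13.34 and 13.47 on day 0, at 13.87, 13.67 and 13.80 on day 2, and at 13.37, 13.65 and 13.73 on day 6. All day 2 arrays exceeded all day 0 arrays in both lines, with rises of 0.42 in Cl19 (SE 0.13, adjusted p = 0.0290) and 0.60 in 3c3 (SE 0.13, adjusted p = 0.00310). The day 2 call was lost in Cl19 without replicate 1 of that day (0.37, adjusted p = 0.0793), and in both lines with 75th percentile scaling (0.16 and 0.38, adjusted p = 0.517 and 0.0840). By day 6 the groups overlapped in Cl19 and stayed apart in 3c3. Ndufa1 rose by 0.77 by day 6 in 3c3 (SE 0.13, adjusted p = 9.19e-05, higher in 3 of 3 slides), while its day 6 change of 0.22 in Cl19 (SE 0.13) did not pass (adjusted p = 0.177, higher in 3 of 3 slides). Scaled to the 75th percentile, the rise in 3c3 was 0.37 and missed the test (adjusted p = 0.0518), and the Cl19 value turned to −0.15.

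Ndufv3l, now listed as Ndufv3, an accessory subunit at the NADH end, was at 10.80, 10.79 and 10.96 on day 0 in Cl19, at 11.45, 11.43 and 11.64 on day 2, and at 11.27, 11.20 and 11.41 on day 6. In 3c3 it was at 10.58, 10.88 and 10.88, at 11.45, 11.50 and 11.49, and at 11.32, 11.04 and 11.18 on these days. Day 2 arrays were the highest of each line and day 6 arrays lay between, all above day 0. It rose by 0.65 by day 2 in Cl19 (adjusted p = 0.0128) and by 0.70 in 3c3 (adjusted p = 0.00997), above day 0 in 3 of 3 arrays each, and by 0.68 in Cl19 without replicate 1 of that day (adjusted p = 0.0208). The day 6 changes were 0.44 (SE 0.18, adjusted p = 0.0478) in Cl19 and 0.40 (SE 0.18, adjusted p = 0.0777) in 3c3, higher in 3 of 3 slides each, and the Cl19 call was lost with 75th percentile scaling (0.12, adjusted p = 0.636), in the unscaled table (adjusted p = 0.0963), with no filter on dim probes (adjusted p = 0.0702) and in a fit of that line alone (adjusted p = 0.0696). Ndufb11, also on the X chromosome, rose by day 2 in both lines, by 0.41 and 0.60 (adjusted p = 0.00571 and 0.000277, above day 0 in 3 of 3 arrays each), and likewise by 0.41 in Cl19 without that replicate (adjusted p = 0.0132). Scaled to the 75th percentile, neither gene passed on day 2 in Cl19 (Ndufv3l 0.50 and Ndufb11 0.15, adjusted p = 0.0687 and 0.510), and Ndufb11 missed the test in 3c3 (0.38, adjusted p = 0.0671).

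Complex II, the succinate dehydrogenase that also works in the citrate cycle, had a median of −0.15, −0.56 and −0.69 on days 2, 4 and 6 in Cl19 and of 0.01, −0.31 and −0.42 in 3c3. Leaving out Cl19 day 2 replicate 1, the day 2 median was −0.03 in Cl19. Scaled to the 75th percentile, the medians were −0.28, −0.99 and −0.81 in Cl19 and −0.11, −0.65 and −0.76 in 3c3. After normexp they were −0.08, −0.34 and −0.41, and 0.03, −0.21 and −0.19, and in the unscaled table the day 2 medians were −0.05 and 0.19. Its 4 subunits did not share a direction: Sdha fell in both lines, Sdhd fell in Cl19, Sdhb rose in both, and Sdhc was dim.

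Sdha, the flavoprotein that oxidizes succinate (rn4, chr1:29764220-29764279), read 14.43, 14.36 and 14.35 on day 0, 14.05, 13.78 and 13.77 on day 4 and 13.70, 13.63 and 13.53 on day 6 in Cl19. In 3c3 it read 14.58, 14.39 and 14.42, then 14.17, 14.05 and 13.99, then 13.90, 13.83 and 13.78. The 3 days form separate steps in each line, with no day 4 array as high as a day 0 array and no day 6 array as high as a day 4 array. Sdha fell by 0.76 in Cl19 (1.69-fold, SE 0.11, adjusted p = 5.87e-06) and by 0.63 in 3c3 (1.55-fold, SE 0.11, adjusted p = 6.91e-05), lower in 3 of 3 slides each.

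Sdhb, the iron-sulfur subunit that passes the electrons on, behaved differently. In Cl19 it was at 11.90, 11.94 and 11.95 on day 0 and at 12.77, 12.68 and 12.34 on day 6. In 3c3 it was at 11.56, 12.24 and 11.76 on day 0 and at 12.20, 12.72 and 12.52 on day 6. The groups were apart in Cl19 and overlapped in 3c3, where replicate 2 was the highest on both days. Within slides it was higher on day 6 in 3 of 3 pairs of each line, and it rose by 0.67 (SE 0.16, adjusted p = 0.00149) and 0.62 (SE 0.16, adjusted p = 0.00303). Under 75th percentile scaling both rises were 0.31 and missed the test (adjusted p = 0.0905 and 0.0935).

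Sdhd, a membrane anchor of the enzyme, was at 13.48, 13.56 and 13.64 on day 0 and 12.65, 12.77 and 13.10 on day 6 in Cl19, and at 13.32, 13.43 and 13.49 against 13.24, 13.15 and 13.22 in 3c3. Day 6 lay below day 0 without overlap in both lines, by a narrower margin in 3c3. It fell by 0.72 in Cl19 (SE 0.14, adjusted p = 0.000328, lower in 3 of 3 slides), its change in 3c3 was −0.21 (adjusted p = 0.248, lower in 3 of 3 slides), and the difference between the lines was −0.51 (SE 0.20, adjusted p = 0.102). Scaled to the 75th percentile, the 3c3 value was −0.57 and passed (adjusted p = 0.0114). Sdhc, the other anchor, was well above background on 21 of 26 arrays, and its changes of −0.67 in Cl19 and −1.07 in 3c3 did not pass (adjusted p = 0.379 and 0.156, lower in 3 of 3 slides each), though in 3c3 it passed with slide as a block (adjusted p = 0.00961).

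Complex III had medians of 0.03, −0.25 and −0.18 on days 2, 4 and 6 in Cl19 and of −0.01, −0.34 and −0.39 in 3c3. On day 4, 2 genes fell in Cl19, Uqcrc1 (−0.42, SE 0.15, adjusted p = 0.0292) and Uqcrh (−0.44, SE 0.17, adjusted p = 0.0371), each below every day 0 array in 3 of 3 arrays, and 7 fell with 75th percentile scaling, as 30.8% of all tested probes did. On day 6, 4 of its 8 genes fell in 3c3 (Cyc1, Uqcrc1, Uqcrc2 and Uqcrfs1), and limma called 0 in Cl19, with 0 at an unadjusted p under 0.05 and 5 falls with 75th percentile scaling. Without Cl19 day 2 replicate 1 the day 2 median was 0.04. Scaled to the 75th percentile, the medians were −0.21, −0.65 and −0.51 in Cl19 and −0.18, −0.60 and −0.66 in 3c3. In the unscaled table the day 2 median turned to 0.12 in 3c3, and in Cl19 0.01 on day 2 and −0.38 on day 4. After normexp they were 0.01 on day 2 in Cl19 and −0.19 on day 4 in 3c3.

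Uqcrc1, a core subunit facing the matrix, was at 12.05, 11.81 and 12.04 on day 0 and 11.85, 11.42 and 11.78 on day 6 in Cl19, and at 12.03, 11.94 and 12.06 against 11.27, 10.98 and 11.46 in 3c3. Cyc1, the cytochrome c1 that delivers electrons to cytochrome c, was at 13.26, 13.08 and 13.12 against 13.31, 12.85 and 13.14 in Cl19, and at 13.35, 13.15 and 13.21 against 12.84, 12.36 and 12.66 in 3c3. Both genes overlapped between the days in Cl19 and were apart in 3c3. In 3c3 Uqcrc1 fell by 0.77 (SE 0.15, adjusted p = 0.000372) and Cyc1 by 0.62 (SE 0.14, adjusted p = 0.00147), lower in 3 of 3 slides each. Their changes in Cl19 were −0.28 (adjusted p = 0.133, lower in 3 of 3 slides) and −0.06 (adjusted p = 0.773, lower in 1 of 3 slides). The difference between the lines was 0.49 for Uqcrc1 (SE 0.22, adjusted p = 0.145) and 0.56 for Cyc1 (SE 0.20, adjusted p = 0.0651), which does not pass. Fitted with slide as a block, the change of Uqcrc1 in Cl19 passed (adjusted p = 0.0149), as it did with 75th percentile scaling (−0.63, adjusted p = 0.0116).

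Cycs, cytochrome c itself, ran from 13.18 to 13.50 on day 0 and from 13.27 to 13.81 on day 6 in Cl19, and from 13.15 to 13.88 and from 12.86 to 13.13 in 3c3. The Cl19 groups overlapped, and the 3c3 groups came close without overlap. Its changes of 0.27 and −0.41 did not pass (adjusted p = 0.389 and 0.188, higher in 3 of 3 slides in Cl19 and lower in 3 of 3 in 3c3), and their difference of 0.68 (SE 0.35) did not either (adjusted p = 0.226). Its other 2 probes gave 0.11 and 0.41 in Cl19 (adjusted p = 0.735 and 0.226) and −0.64 and −0.61 in 3c3, where the former passed (adjusted p = 0.0325) and the latter did not (adjusted p = 0.0716). Under 75th percentile scaling the Cl19 value turned to −0.11 and the 3c3 value was −0.76 and passed (adjusted p = 0.00642).

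With quantile normalization complex IV, cytochrome c oxidase, stayed nearest to 0 of the complexes on day 6, whereas in Cl19 the ATP synthase lay nearer in the unscaled table. The complex IV medians were 0.18, −0.03 and −0.00 on days 2, 4 and 6 in Cl19 and 0.27, 0.08 and 0.06 in 3c3. Without Cl19 day 2 replicate 1 the day 2 median in Cl19 was 0.14. Relative to all tested probes its day 6 median was 0.20 and 0.27 with quantile normalization and 0.02 and 0.01 with 75th percentile scaling, where the medians themselves were −0.05, −0.29 and −0.21 on the 3 days in Cl19 and 0.11, −0.16 and −0.22 in 3c3. In the unscaled table the day 6 median in Cl19 turned to 0.12 and after normexp to 0.05, and the day 2 and 4 medians in 3c3 were 0.42 and 0.19 in the unscaled table. Of its 12 tested genes 3 rose in Cl19 (Cox5b, Cox6b2 and Ndufa4) and 1 fell (Cox4i2), and in 3c3 1 rose (Cox6b2) and limma called 0 as lower, with 0 at an unadjusted p under 0.05 and 0 with 75th percentile scaling.

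Cox6b2, an isoform of subunit VIb known from testis, had the largest rise among all members (rn4, chr1:67810813-67811438). It stood at 4.31, 4.34 and 4.61 on day 0 in Cl19, at 6.46, 6.30 and 6.69 on day 2, at 6.22, 7.29 and 7.34 on day 4 and at 7.21, 7.39 and 7.31 on day 6. In 3c3 it stood at 4.63, 4.96 and 5.04, at 6.59, 6.24 and 6.65, at 6.34, 5.71 and 6.33, and at 7.66, 5.96 and 6.80. Every array of days 2, 4 and 6 lay above every day 0 array of its line, and most of the rise was present on day 2. The rise by day 6 was 2.88 in Cl19 (7.37-fold, SE 0.37, adjusted p = 2.43e-06) and 1.93 in 3c3 (3.81-fold, SE 0.37, adjusted p = 0.000284), higher in 3 of 3 slides each. The difference of 0.95 between the lines did not pass (SE 0.53, adjusted p = 0.263). With normexp the rises were 1.24 and 0.81.

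Cox5b, a subunit near the matrix side, was at 14.00, 13.83 and 13.98 on day 0 and 14.47, 14.18 and 14.41 on day 6 in Cl19, and at 13.75, 13.85 and 13.97 against 14.13, 13.91 and 14.14 in 3c3. The groups were apart in Cl19 and overlapped in 3c3. It rose by 0.41 in Cl19 (SE 0.11, adjusted p = 0.00431, higher in 3 of 3 slides), with 0.20 in 3c3 (adjusted p = 0.152, higher in 3 of 3 slides) and a difference of 0.21 (SE 0.16, adjusted p = 0.454). Its rise in Cl19 was 0.02 with 75th percentile scaling (adjusted p = 0.946) and missed the test as a mean over its 2 probes (0.36, adjusted p = 0.440), and the 3c3 value turned to −0.18.

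Ndufa4 was at 14.12, 14.16 and 14.18 on day 0 and at 14.87, 14.98 and 15.28 on day 6 in Cl19, against 13.88, 14.15 and 14.06 and 14.57, 14.09 and 14.12 in 3c3. Cl19 was well separated, whereas in 3c3 only replicate 1 was clearly higher. It rose by 0.89 in Cl19 (SE 0.20, adjusted p = 0.00103, higher in 3 of 3 slides), and the 3c3 value of 0.23 did not pass (adjusted p = 0.382, higher in 2 of 3 slides). The difference of 0.67 between the lines did not pass (SE 0.29, adjusted p = 0.132), and the 3c3 value turned to −0.19 with 75th percentile scaling.

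Cox4i1 and Cox4i2 are the general and the lung-type forms of subunit IV, the latter known to be induced at low oxygen. Cox4i1 ran from 12.90 to 13.19 on day 0 and from 13.07 to 13.27 on day 6 in Cl19, and from 12.94 to 13.20 and from 13.24 to 13.44 in 3c3, overlapping in the former and narrowly apart in the latter. Its changes of 0.10 and 0.28 did not pass (adjusted p = 0.565 and 0.0804, higher in 2 of 3 and 3 of 3 slides), the 3c3 value passed with normexp (0.36, adjusted p = 0.00657) and with slide as a block (adjusted p = 0.0193), and both turned with 75th percentile scaling, to −0.25 and −0.06. Cox4i2 stood at 7.53, 7.30 and 7.54 on day 0 and 6.76, 6.88 and 7.16 on day 6 in Cl19, and at 7.45, 7.05 and 7.56 against 7.32, 7.43 and 7.57 in 3c3. The Cl19 groups were apart and the 3c3 groups overlapped. It fell by 0.52 in Cl19 (SE 0.17, adjusted p = 0.0160, lower in 3 of 3 slides) with 0.08 in 3c3 (adjusted p = 0.734, higher in 2 of 3 slides) and a difference of −0.61 that did not pass (SE 0.25, adjusted p = 0.105). In the unscaled table the Cl19 value was −0.17 and did not pass (adjusted p = 0.399), and the 3c3 value was 0.40 and did (adjusted p = 0.0382).

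Cox5a, the partner of Cox5b, varied with the replicate as much as with the day. In Cl19 it read 5.39, 6.86 and 5.75 on day 0 and 4.44, 6.09 and 4.91 on day 6, and in 3c3 5.37, 6.94 and 5.28 and 4.89, 6.04 and 4.41. Replicate 2 was the highest at each of these times, so the days overlapped, yet within every slide day 6 was the lower. The changes of −0.85 (SE 0.65, adjusted p = 0.293) and −0.75 (SE 0.65, adjusted p = 0.369) did not pass, although lower in 3 of 3 slides each, and did pass with slide as a block (adjusted p = 0.000101 and 0.000386). Its second, dimmer probe gave −0.56 (adjusted p = 0.315) and −1.58 (adjusted p = 0.00636), and as a mean over both probes the 3c3 change was −1.17 and passed (adjusted p = 0.0319).

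The remaining isoforms of complex IV did not pass the test on day 6. Cox6a1 changed by −0.20 and −0.10, Cox6a2, the heart and skeletal muscle form, by −0.10 and 0.05, Cox7a2 by 0.40 and −0.01, Cox8a by −0.20 and 0.03, and Cox7b by −0.16 and −0.30. With 75th percentile scaling Cox6a1 and Cox8a fell in Cl19 (−0.41, adjusted p = 0.0302, and −0.58, adjusted p = 0.00662), and Cox8a in 3c3 turned to −0.39. Cox7b was above day 0 on all day 2 arrays in both lines, at 0.39 and 0.46, without passing the test on that day (adjusted p = 0.241 and 0.173), and at 0.35 in Cl19 without replicate 1 (adjusted p = 0.364). Cox8b was well above background on 6 of 26 arrays and Cox8c on 0. The related Cox7a2l, known for joining respiratory complexes into larger assemblies, rose by 0.76 in Cl19 (SE 0.30, adjusted p = 0.0399) with 0.47 in 3c3 (SE 0.30, adjusted p = 0.210), higher in 3 of 3 slides each, and their difference was 0.29 (adjusted p = 0.769). Its Cl19 call was lost with 75th percentile scaling (adjusted p = 0.194), in the unscaled table (adjusted p = 0.0796) and without the filter (adjusted p = 0.0643), and in 3c3 it passed with slide as a block (adjusted p = 0.00152).

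The ATP synthase held the largest fall of any tested member in Cl19, that of Atp5g1, and several genes that did not pass the test. Its medians were 0.04, −0.16 and −0.04 on days 2, 4 and 6 in Cl19 and 0.09, −0.17 and −0.23 in 3c3. On day 6, 2 of 15 genes rose (Atp5d and Atp5l) and 6 fell in Cl19, and 1 rose (Atp5l) and 5 fell in 3c3. Without Cl19 day 2 replicate 1 the day 2 median in Cl19 was 0.09. With 75th percentile scaling the medians were −0.19, −0.59 and −0.42 in Cl19 and −0.13, −0.47 and −0.57 in 3c3. In the unscaled table they were −0.31 on day 4 and −0.10 on day 6 in Cl19 and 0.17 on day 2 in 3c3, and after normexp −0.07 on day 6 in Cl19.

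Atp5g1, now Atp5mc1, is 1 of 3 genes for the c subunit of the rotor, which all yield the same mature protein (rn4, chr10:84788826-84789159). In Cl19 it stood at 15.26, 15.15 and 15.36 on day 0, at 14.95, 14.68 and 14.68 on day 2, at 13.83, 14.11 and 13.89 on day 4 and at 13.88, 13.70 and 13.99 on day 6. In 3c3 it stood at 15.25, 14.97 and 15.24, at 14.97, 14.79 and 14.91, at 14.60, 14.11 and 14.31, and at 14.65, 14.09 and 14.34. In each line the day 4 and day 6 arrays overlapped, and all of them lay below every day 2 array. Whether the step from day 2 to day 4 differed between the lines was not tested. Atp5g1 fell by 1.40 in Cl19 (2.64-fold, SE 0.15, adjusted p = 3.17e-07) and by 0.79 in 3c3 (1.73-fold, SE 0.15, adjusted p = 0.000316), lower in 3 of 3 slides each.

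The other c subunit genes moved less. Atp5g3 ran from 15.20 to 15.35 on day 0 and from 14.39 to 14.72 on day 6 in Cl19, and from 15.01 to 15.23 and from 14.24 to 14.78 in 3c3, apart in both lines. It fell by 0.79 (SE 0.18, adjusted p = 0.000884) and 0.61 (SE 0.18, adjusted p = 0.00727), lower in 3 of 3 slides each, and as a mean over its 2 probes the 3c3 call was lost (−0.68, adjusted p = 0.186). Atp5g2 ran from 16.00 to 16.07 and from 15.47 to 15.58 in Cl19, and from 15.93 to 16.10 and from 15.65 to 15.95 in 3c3, apart in the former and overlapping in the latter. It fell by 0.53 in Cl19 (SE 0.11, adjusted p = 0.000529), while −0.23 in 3c3 (adjusted p = 0.0981) did not pass, lower in 3 of 3 slides each, with a difference of −0.30 (SE 0.16, adjusted p = 0.242). In 3c3 it passed with 75th percentile scaling (−0.61, adjusted p = 0.00721), in the unscaled table (−0.30, adjusted p = 0.0269), with normexp (adjusted p = 0.0201) and with slide as a block (adjusted p = 0.0344). A second probe of Atp5g2 gave 0.00 and 0.03.

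Atp5a1, now Atp5f1a, the α subunit of the catalytic head (rn4, chr18:74739347-74739406), was at 14.83, 14.59 and 14.71 on day 0 and 13.51, 13.20 and 13.92 on day 6 in Cl19. In 3c3 it was at 14.74, 14.59 and 14.69 on day 0 and 13.88, 13.42 and 13.92 on day 6. All day 6 arrays were below all day 0 arrays in both lines, with replicate 2 the lowest. Atp5a1 fell by 1.17 (2.24-fold, SE 0.17, adjusted p = 1.03e-05) and 0.93 (1.91-fold, SE 0.17, adjusted p = 0.000165), lower in 3 of 3 slides each. The γ subunit gene Atp5c1 of the central stalk moved by −0.64 in Cl19 and −0.74 for 3c3, and Atp5f1, now Atp5pb, of the outer stalk one of −0.63 and −0.57.

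Atp5d, the δ subunit of the central stalk, was at 14.04, 13.96 and 14.08 on day 0 and 14.62, 14.37 and 14.48 on day 6 in Cl19, and at 14.04, 13.98 and 14.05 against 14.34, 14.07 and 14.31 in 3c3. Day 6 lay above day 0 in both lines, barely so in 3c3. It rose by 0.46 in Cl19 (SE 0.12, adjusted p = 0.00360, higher in 3 of 3 slides), with 0.22 in 3c3 (adjusted p = 0.156, higher in 3 of 3 slides) and a difference of 0.25 (SE 0.17, adjusted p = 0.421). With 75th percentile scaling the values were 0.06 (adjusted p = 0.805) and −0.21. Atp5l, now Atp5mg, a small membrane subunit, ran from 13.09 to 13.23 and from 13.42 to 13.53 in Cl19 and from 12.70 to 13.02 and from 13.07 to 13.34 in 3c3, apart in both. It rose by 0.35 (SE 0.13, adjusted p = 0.0270) and 0.34 (SE 0.13, adjusted p = 0.0342), higher in 3 of 3 slides each. Both rises were lost in the unscaled table (adjusted p = 0.123 and 0.171), in fits of each line alone (adjusted p = 0.0698 and 0.0570) and with 75th percentile scaling (0.00 and −0.01, adjusted p = 0.992 and 0.958), where the 3c3 value has the other sign.

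**Figure D2:**
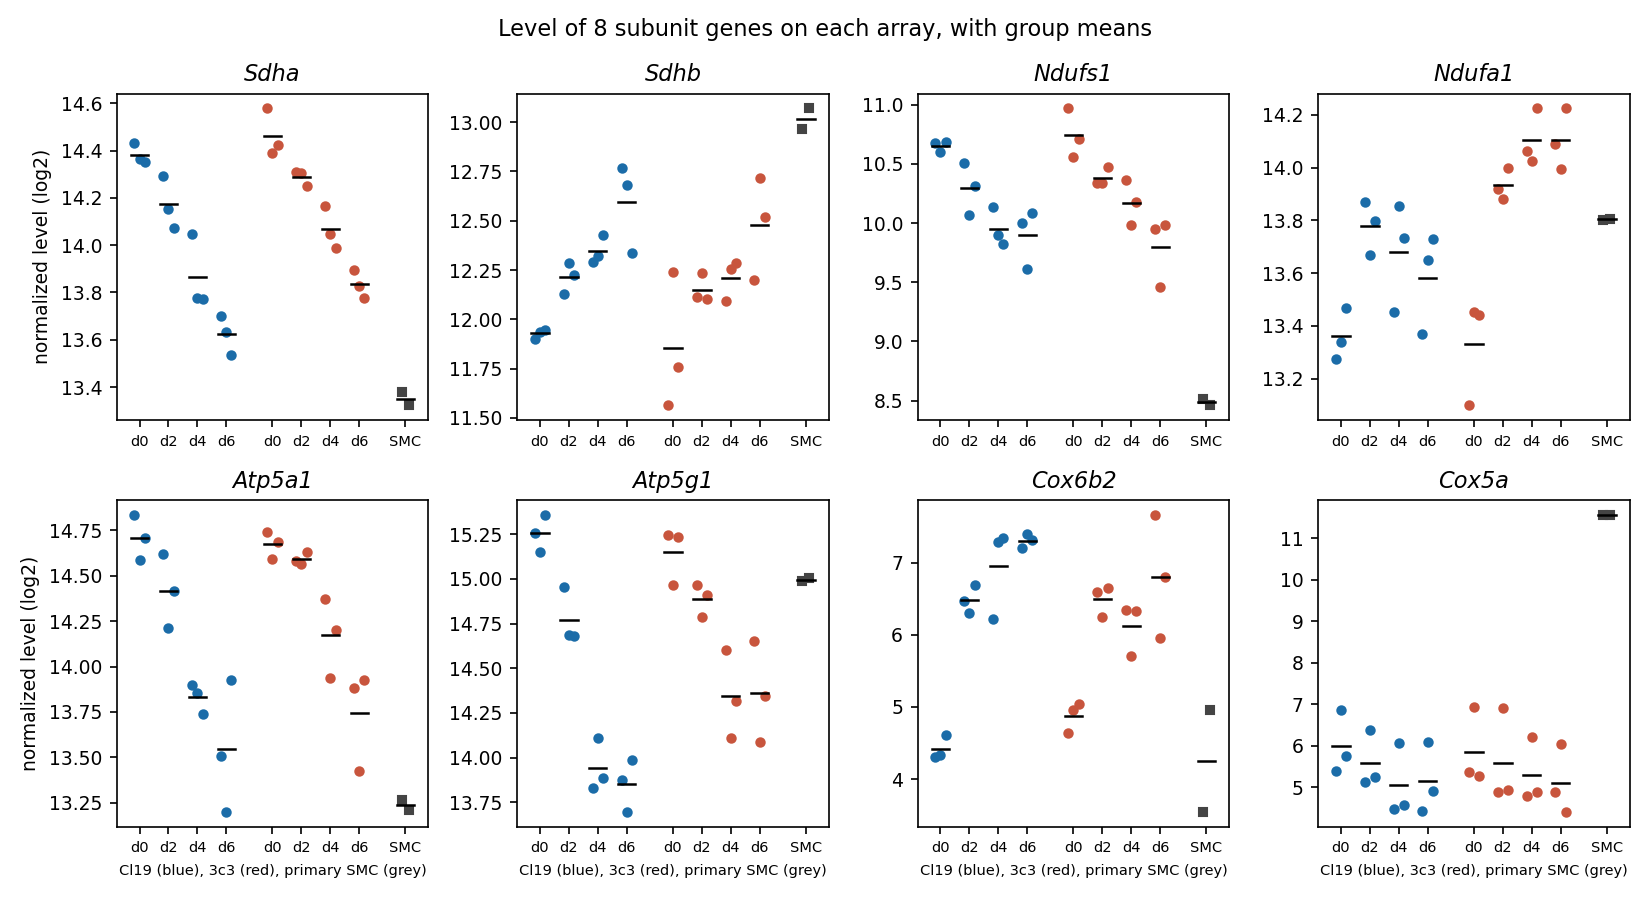
Normalized log2 level (vertical axis) of Sdha, Sdhb, Ndufs1, Ndufa1, Atp5a1, Atp5g1, Cox6b2 and Cox5a on each array, by day in Cl19 (blue) and 3c3 (red) and in primary smooth muscle (grey), with a point per array and a bar at the group mean. Atp5g1 goes from 15.26 to 13.85 on average in Cl19 and is at 15.00 in primary smooth muscle, while Cox5a is at 11.56 on both primary arrays and at most 6.94 on the others.

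Regulators of mitochondrial biogenesis were the last members. Tfam packages mitochondrial DNA and starts its transcription, and it was at 11.92, 11.98 and 12.09 on day 0 and 11.70, 11.63 and 11.77 on day 6 in Cl19, and at 11.87, 12.05 and 12.05 against 11.35, 11.26 and 11.35 in 3c3. Day 6 was below day 0 without overlap in both lines, by more in 3c3. It fell by 0.30 in Cl19 (SE 0.11, adjusted p = 0.0283) and by 0.67 in 3c3 (SE 0.11, adjusted p = 5.18e-05), lower in 3 of 3 slides each, and the difference of 0.37 did not pass (SE 0.15, adjusted p = 0.114). In Cl19 the call was lost in the unscaled table (adjusted p = 0.0720) and in a fit of that line alone (adjusted p = 0.0900). Ppargc1a, the coactivator of mitochondrial genes, was well above background on 1 of 26 arrays, Cl19 day 6 replicate 1, where it read 3.99, and it was not tested. The assembly factor Ndufaf1 fell by 1.14 (SE 0.41, adjusted p = 0.0249) and 1.21 (SE 0.41, adjusted p = 0.0201), lower in 3 of 3 slides each, and missed the test in the unscaled table (−0.75 and −0.87, adjusted p = 0.231 and 0.170).

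Of the 15 genes with more than 1 probe, 13 had several tested probes. On day 6 the probes of a gene had opposite signs in 3 genes in each line, a different call in 7 genes in Cl19 and 4 in 3c3, and opposite calls in 0 genes by limma. Ndufb3 and Atp5j2 were such cases, singled out after their values were seen. Ndufb3 was −0.16 in Cl19 and −0.33 in 3c3 at its brightest probe and −1.26 and −1.31 at a dimmer one. Atp5j2 was 0.37 and 0.22 at the brightest and −0.91 and −0.62 at the other.

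Next comes the question whether the lines differ. On day 0 limma called 0 members as different between Cl19 and 3c3, where 2.00% of all tested probes were higher in Cl19 and 1.08% lower, and 2 members were higher and 0 lower at an unadjusted p under 0.05, against 5.99% and 4.71%. Line and scan day cannot be told apart in this comparison. The change from day 0 to day 6 was higher in Cl19 for 1 member (Ndufa5) and lower for 1 (Ndufa1), where 8.17% and 9.27% of tested probes were so called, and at an unadjusted p under 0.05 for 8 and 5, against 13.9% in each direction.

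Ndufa5, an accessory subunit of complex I, was at 13.87, 13.83 and 13.87 on day 0 and 13.52, 13.69 and 13.72 on day 6 in Cl19. In 3c3 it was at 13.71, 14.06 and 13.93 on day 0 and 13.11, 13.04 and 13.18 on day 6. All day 6 arrays lay below all day 0 arrays of their line, in 3c3 at a level that no Cl19 day 6 array reached. The change was −0.21 in Cl19 (adjusted p = 0.190) and −0.79 in 3c3 (adjusted p = 6.48e-05), lower in 3 of 3 slides each, and they differed by 0.58 (SE 0.19, adjusted p = 0.0371). For Ndufa1 the difference was −0.55 (SE 0.19, adjusted p = 0.0499), higher on day 6 in 3 of 3 slides of each line. Atp5g1 came next at −0.61 (SE 0.22), which did not pass (adjusted p = 0.0601) but did with slide as a block (adjusted p = 0.0122) and with normexp (−0.60, adjusted p = 0.0426). With 75th percentile scaling and in the unscaled table limma called 0 differences in either direction, where 7.30% of all tested probes were higher and 8.91% lower, and 7.40% and 9.34%. Normexp gave 5 higher and 3 lower, against 9.75% and 9.32%, and slide as a block 6 higher and 5 lower, against 12% and 12.6%.

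Primary smooth muscle is the study's reference for the cells that differentiation aims at. Against day 6 of Cl19, 46 members were higher in primary smooth muscle and 10 lower, where 32.8% of all tested probes were higher and 38.6% lower. Against day 6 of 3c3, 55 were higher and 9 lower, where the shares were 33.4% and 38.1%. The primary arrays are the same in both comparisons. The median difference was 0.57 and 0.72, beside −0.13 and −0.13 for all tested probes.

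The members' medians moved furthest between scalings in this comparison. The primary arrays were also dimmer over all, and whether this was the cause was not tested. In the authors' unscaled table the members' medians turned to −0.93 and −0.83, with 2 higher and 55 lower than Cl19 and 3 higher and 51 lower than 3c3, where 6.71% of all tested probes were higher and 74.1% lower than Cl19, and 7.59% and 72.2% than 3c3. The medians of all tested probes were −2.17 and −2.09 there. Relative to all tested probes the members were at 0.70 and 0.84 with quantile normalization, 1.24 and 1.26 in the unscaled table or with the 75th percentile, and 0.58 and 0.68 with normexp. Of the calls, 82.1% and 85.9% were higher with quantile normalization, 92.5% and 92.8% with the 75th percentile, and 3.51% and 5.56% in the unscaled table. With the 75th percentile, 38.5% of all tested probes were higher and 31.0% lower than Cl19, and 37.9% and 31.4% than 3c3. Relative to the median of all tested probes, 63 of 79 members were above it under all 4 scalings against Cl19 and 65 against 3c3, as were 45.5% and 45.4% of all tested probes, and 9 and 8 were below it under all 4, as were 45.7% and 45.5%.

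**Figure D3:**
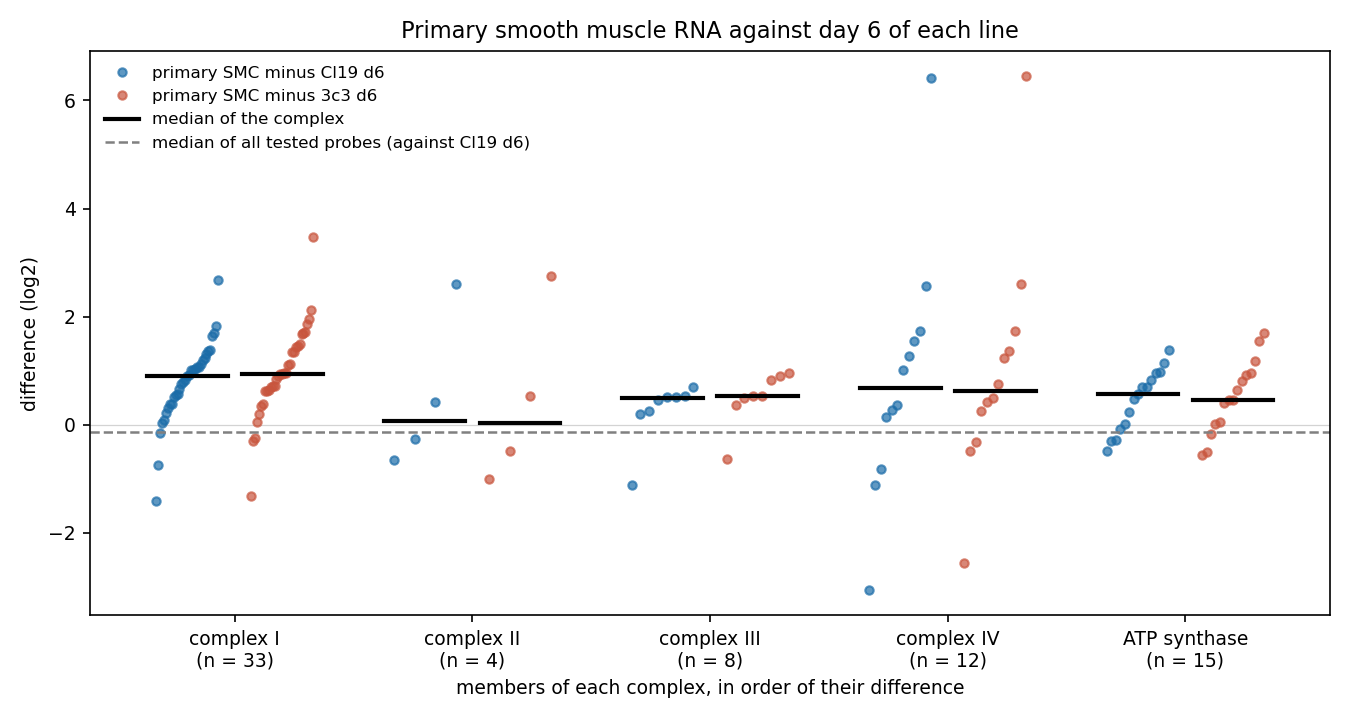
Difference of primary smooth muscle from day 6 in log2 (vertical axis) for each tested gene by complex (horizontal axis), against Cl19 (blue) and 3c3 (red), with a point per gene and a bar at the median, and the median of all tested probes dashed. Complex I medians lie at 0.90 and 0.95 and complex II medians at 0.08 and 0.03, and all of these turn below 0 in the unscaled table, where they are −0.73 and −0.44, and −1.61 and −1.63.

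By complex, the medians against Cl19 and 3c3 were 0.90 and 0.95 for complex I, with 22 higher and 1 lower and with 26 higher and 1 lower. For complex II they were 0.08 and 0.03, with 2 higher and 2 lower in each. Complex III had 0.49 and 0.53, with 4 higher and 1 lower and with 6 higher and 1 lower, complex IV 0.69 and 0.63, with 7 and 3 and with 8 and 1, and the ATP synthase 0.57 and 0.47, with 9 and 1 and with 10 and 2. Each of these medians is negative in the unscaled table. With arrays scaled to their 75th percentile they were 1.64 and 1.86 for complex I, 0.76 and 0.66 for complex II, 1.24 and 1.53 for complex III, 1.74 and 1.72 for complex IV and 1.47 and 1.67 for the ATP synthase. After normexp the complex II median against 3c3 turned to −0.00.

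Cox5a gave the largest difference among the members well above background in all of these arrays. It was at 11.56 on both primary arrays, and on day 6 at 4.44, 6.09 and 4.91 in Cl19 and 4.89, 6.04 and 4.41 in 3c3. No array of the rMAPC lines came near the primary level on any day. It was 85.1-fold higher than in Cl19 (6.41, SE 0.73, adjusted p = 1.87e-07) and 87.1-fold higher than in 3c3 (6.44, SE 0.73, adjusted p = 1.67e-07), with both primary arrays above 3 of 3 day 6 arrays of each line, and it was also higher in the unscaled table, by 4.20 and 4.36. Its second probe gave 2.64 and 3.32. Cox6a2 was at 8.58 and 8.51 in primary smooth muscle and between 5.45 and 6.56 on day 6, higher by 2.57 (SE 0.41, adjusted p = 1.56e-05) and 2.61 (SE 0.41, adjusted p = 1.30e-05), and by 0.08 and 0.26 in the unscaled table, where it did not pass (adjusted p = 0.835 and 0.518).

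Quantile normalization gave subunit IV as higher in both of its forms. Cox4i1 was at 14.72 and 14.68 in primary smooth muscle and Cox4i2 at 8.67 and 8.69, above all day 6 arrays of both lines. Cox4i1 was higher by 1.54 and 1.37 and Cox4i2 by 1.74 and 1.24, and relative to all tested probes in the unscaled table they were at 2.43 and 2.21 and at 1.45 and 0.98. There Cox4i1 itself was at 0.26 and 0.12 and did not pass (adjusted p = 0.127 and 0.479), and Cox4i2 turned to −0.71 and −1.11 (adjusted p = 0.000774 and 5.75e-06). With the 75th percentile Cox4i1 was at 2.63 and 2.42. Sdhc, well above background on 2 of 3 day 6 arrays of each line and on both primary arrays, was at 5.68 and 5.93 in the latter, higher by 2.61 (SE 0.68, adjusted p = 0.00201) and 2.76 (SE 0.68, adjusted p = 0.00126), and in the unscaled table at 0.32 and 0.55 without passing (adjusted p = 0.691 and 0.485). After normexp it was at 0.59 and 0.61.

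Several members that fell during differentiation were high in primary smooth muscle. Atp5g1, at 14.99 and 15.00, was above the day 6 arrays by 1.14 and 0.64, and Ndufv2, at 14.24 on both arrays, by 1.24 and 1.34. In the unscaled table neither gene was above (−0.06 and −0.48, and −0.18 and −0.07), and Atp5g1 passed as lower than 3c3 (adjusted p = 0.0205). Ndufs1, Sdha and Tfam differed from these: they fell over the days of differentiation and were lower again in primary smooth muscle. Sdha, at 13.38 and 13.32, was below day 6 by a change of −0.27 (SE 0.12, adjusted p = 0.0469) and −0.48 (SE 0.12, adjusted p = 0.00122), which turned to 0.45 and 0.21 with 75th percentile scaling. Ndufs1 was 2.66-fold and 2.48-fold lower (−1.41 and −1.31, adjusted p = 1.47e-06 and 3.72e-06), below 3 of 3 day 6 arrays of each line, and Tfam was at −1.01 and −0.63.

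Cytochrome c stood lower in primary smooth muscle than at any time in the lines. Cycs was at 11.72 and 11.73 there and at 12.81 or more on every other array. The difference from day 6 was −1.85 (3.61-fold, SE 0.28, adjusted p = 6.72e-06) and −1.32 (2.49-fold, SE 0.28, adjusted p = 0.000291), both primary arrays being below 3 of 3 day 6 arrays, and its other 2 probes gave −1.89 and −1.89 against Cl19 and −1.37 and −1.17 against 3c3. Under all 4 scalings 4 members were lower than day 6 of both lines past the test, Cycs, Ndufs1, Tfam and Cox6b2, as were 24.0% of all tested probes, and 2 were higher, Cox5a and Ndufb8, as were 5.31%. Cox6b2 was at 3.54 and 4.96 and well above background on 1 of the 2 primary arrays.

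Cyc1, which hands electrons to cytochrome c, was at 12.01 and 11.96 in primary smooth muscle, −1.11 (SE 0.16, adjusted p = 4.51e-06) and −0.63 (SE 0.16, adjusted p = 0.00174) from day 6, below 3 of 3 day 6 arrays of each line. Sdhd, at 12.22 and 12.18, was 1.56-fold and 2.01-fold lower and likewise below them all. Under 75th percentile scaling the call was lost for Cyc1 against 3c3 (−0.21, adjusted p = 0.429) and for Sdhd against Cl19 (−0.10, adjusted p = 0.664). The other members lower than both lines were Sdha, Ndufs1, Cycs, Cox6b2, Tfam and Atp5f1, where Atp5f1 turned to 0.68 and 0.65 under 75th percentile scaling. Cox7b and Ndufa4 were lower than Cl19 and Atp5a1 lower than 3c3, calls that this scaling also ended (−0.44, −0.24 and 0.14, adjusted p = 0.143, 0.364 and 0.626), and whether the comparisons differ for these 3 was not tested.

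Genes that work with the subunits were counted from lists, beside all tested probes, of which 22.0% rose and 30.3% fell by day 6 in Cl19 and 19.7% and 28.6% in 3c3. In primary smooth muscle 32.8% of tested probes were higher and 38.6% lower than Cl19, and 33.4% and 38.1% than 3c3. Among the 7 subunits encoded in mitochondrial DNA 1 rose by day 6 in Cl19 (CYTB, by 1.28) and in 3c3 5 rose, with CYTB at 1.41, ATP6 at 1.51 and COX3 at 1.08, while limma called 0 as lower in either line, with 0 at an unadjusted p under 0.05. At an unadjusted p under 0.05, 4 were higher in Cl19 and 5 in 3c3, and all 7 changes were above 0 in each line. With 75th percentile scaling 1 and 4 were higher at that p, and 4 of the 7 changes in Cl19 and 6 in 3c3 were above 0. Limma called 0 of the 7 as different between the lines, with 0 at an unadjusted p under 0.05 and 0 with 75th percentile scaling. That scaling gave 1 rise in Cl19 and 3 in 3c3, where 21.5% and 18.9% of all tested probes rose. In Cl19 there were 3 rises with normexp and 2 in the unscaled table, given without the share of all tested probes. The medians of the 7 were 0.59 and 0.72, and 0.33 and 0.58 with 75th percentile scaling. In primary smooth muscle 2 were higher and 1 lower than Cl19 and 1 higher and 1 lower than 3c3.

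Genes for building the complexes came next. Of 70 tested genes of the mitochondrial ribosome (71 on the array) 1 rose and 40 fell in Cl19, with a median of −0.54, and 52 fell in 3c3, where the median was −0.64 and limma called 0 higher, with 0 at an unadjusted p under 0.05. In primary smooth muscle 36 of them were higher and 8 lower than Cl19 and 45 higher and 6 lower than 3c3. Of 11 other assembly factors 9 fell in each line, and limma called 0 as higher, with 1 in Cl19 and 0 in 3c3 at an unadjusted p under 0.05. Among those that fell were Bcs1l, which inserts the iron-sulfur protein of complex III (−1.81 and −1.62), Atpaf1 for the ATP synthase (−1.67 and −1.27) and Ttc19 for complex III (−1.39 and −1.48), and 7 were higher in primary smooth muscle than each line, with 2 and 1 lower. Of 8 complex IV assembly factors 1 rose in each line, Surf1 (0.60 and 0.82), and 4 fell, with Taco1 at −0.97 and −1.35. In primary smooth muscle 3 of these were lower than Cl19 and 0 higher by limma, with 0 at an unadjusted p under 0.05, and 2 were higher and 1 lower than 3c3.

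Genes for upkeep and transcription of mitochondrial DNA counted 4 lower of 8 in each line, with 2 higher in 3c3 and 0 in Cl19 by limma (0 at an unadjusted p under 0.05). Tfb1m, a methyltransferase of mitochondrial ribosomal RNA, fell by 2.32 and 2.10, and Polg, the DNA polymerase, was at −0.19 in Cl19 and rose by 0.96 in 3c3 (adjusted p = 0.00185 for the difference). In primary smooth muscle 1 was higher and 5 lower than each line. Of 14 regulators of mitochondrial biogenesis besides the members 11 were tested, and 6 fell in each line, with 0 higher by limma (0 in Cl19 and 1 in 3c3 at an unadjusted p under 0.05), with Nrf1 at −0.73 and −1.18, Gabpa at −0.91 and −0.78 and Pprc1 at −1.23 and −0.90, and 4 were higher and 5 lower in primary smooth muscle.

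Pathways that supply the fuel were counted as well. In the citrate cycle 9 of 14 genes fell in Cl19, where limma called 0 higher (0 at an unadjusted p under 0.05), and 8 fell and 2 rose in 3c3, with medians of −0.36 and −0.34. Citrate synthase (Cs) fell by 0.37 and 0.49 in the lines, Suclg2 by 1.32 and 0.65 and Fh1 by 0.86 and 1.38, and Idh2 fell by 0.35 in Cl19 and rose by 0.50 in 3c3 (adjusted p = 0.00159 for the difference). In primary smooth muscle 6 were higher and 3 lower than Cl19 and 6 higher and 4 lower than 3c3. In glycolysis, 7 of 19 rose and 3 fell in Cl19 and 5 rose and 1 fell in 3c3, with medians of 0.27 and −0.04. Among the rises, singled out after their values were seen, were the enolase Eno2 at 4.70 and 4.91, the aldolase Aldoc at 1.57 and 1.21 and the glucose transporter Slc2a1 at 1.65 and 1.86. Primary smooth muscle had 4 of these higher and 11 lower than Cl19 and 6 higher and 7 lower than 3c3.

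Promoters were looked at for motifs of factors known to act on these genes. In RefSeq's annotation of GRCr8, 70 of the 85 members matched 1 promoter of 300 bases, 250 before and 50 after the start, among 33469 promoters, and motifs were searched on both strands. The NRF1 letters GCATGCGC stood in 10 of the 70 (14.3%) and in 2.47% of all promoters, the ETS and GABPA letters CCGGAAG in 22 (31.4%) and 8.75%, the YY1 letters AAGATGGC in 13 (18.6%) and 3.17%, and the ERR letters TCAAGGTCA in 1 (1.43%, Sdhd) and 0.433%. At least 1 of these stood in 34 members (48.6%) and in 13.7% of all promoters, and 0 pairs of different motifs overlapped in the members. Of the 17 matched members that fell in both lines 0 held the NRF1 letters, 6 the ETS letters and 2 the YY1 letters. Of the 3 that rose in both, 2 held the NRF1 and 2 the ETS letters, and of 45 other tested members 7 held NRF1, 14 ETS, 11 YY1 and 1 ERR letters. A match describes the sequence and does not show that a factor binds.

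Windows are given for the 2 members that rose in both lines and hold a match. Beside them stand 3 examples from the members that fell in both, all with the ETS letters. Ndufa9 and Ndufs7, which fell in both and hold the YY1 letters, are not shown. The windows have the motif letters in capitals (CCGGAAG or its complement CTTCCGG, and GCATGCGC) on the strand of the gene. They are Ndufs1 (chr9:72073786-72073816, minus strand), Atp5a1 (chr18:73567465-73567495, plus strand), Tfam (chr20:17355305-17355335, plus strand), Sdhb (chr5:158547755-158547844, plus strand) and Atp5l (chr8:54130605-54130657, minus strand), all on GRCr8.
Ndufs1: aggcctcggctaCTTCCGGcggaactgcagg
Atp5a1: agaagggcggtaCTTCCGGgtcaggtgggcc
Tfam: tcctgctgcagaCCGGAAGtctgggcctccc
Sdhb: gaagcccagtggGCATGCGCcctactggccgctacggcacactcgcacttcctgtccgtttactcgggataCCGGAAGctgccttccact
Atp5l: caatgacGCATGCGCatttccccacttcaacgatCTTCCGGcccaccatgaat

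Cox4i1 and Cox4nb lie head to head on chromosome 19, on the plus and the minus strand, and their promoters share 247 bases and the same 2 ETS matches (chr19:65630374-65630424). Cox4nb fell by 0.81 in Cl19 and 0.85 in 3c3 (adjusted p = 0.000277 and 0.000232), lower in 3 of 3 slides each, whereas Cox4i1 was at 0.10 and 0.28. Whether the changes of the pair differ was not tested. The window is shown on the strand of Cox4i1, because both promoters hold it.
Cox4i1: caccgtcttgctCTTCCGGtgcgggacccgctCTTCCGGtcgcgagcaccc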

How the data were processed

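Feature Extraction 10.1.1.1 output of 26 arrays was used. The authors deposited each array's scanner intensity (background-subtracted processed signal, with mean and background intensity beside it), other columns of 0 or 1 calls per feature, and a table of log2 values, which was checked to equal the log2 of that intensity with no scaling between arrays. Log2 intensities of 43379 gene features were quantile-normalized, outlier features were set aside, and repeated features were averaged to 41012 probes, of which 24442, with a signal well above background throughout some group among the 9, were tested. One limma 3.58.1 model (R 4.3.3, Python 3.11.15) held the 9 groups, and p-values were adjusted by Benjamini-Hochberg over all tested probes at 0.05. The fit was tested on simulated data.

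Replicate number marks the slide. Deviations from the group means correlated by more than 0.1 between arrays of a slide in 16 of 18 pairs in Cl19 (lowest 0.062) and 18 of 18 in 3c3 (lowest 0.20), so a block for slide was an alternative. The others were 75th percentile scaling, the unscaled table, normexp background correction (offset 50), no filter, the mean of a gene's probes, a fit per line, leaving out each array or slide, the methods' t-test, and their area method. Leaving out Cl19 day 2 replicate 1 was chosen after seeing the data.

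Members and lists were chosen with earlier results of these data known. Named genes are complex II, Cycs, Cyc1, Tfam and Ppargc1a, the isoform groups of complex IV and of the c subunit, the 2 largest rises and falls by day 6 in each of the other complexes, the 3 smallest adjusted p for the difference between the lines, and the 2 largest differences each way of primary smooth muscle. Rises, falls and primary differences were ranked by their mean over both lines, among members well above background on all arrays compared. Other members are named where a count was 5 or fewer or, as stated, after their values were seen. Of the 85 genes 77 matched the gene table by accession, and 18 have since been renamed. Promoter sequences are RefSeq's.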

Additional observations from a re-analysis of the deposited data

Results flagged for a closer look

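Ndufa5 and Ndufa1 of complex I are given again because limma's test of the difference itself separated the lines. For Ndufa5 the day 6 change in Cl19 minus that in 3c3 was 0.58, with a lower level on day 6 in 3 of 3 slides in each line, and for Ndufa1 it was −0.55, with a higher level on day 6 in 3 of 3 slides in each. Over the other scalings and the block for slide the adjusted p ran from 0.0152 to 0.154 for Ndufa5 and from 0.0183 to 0.185 for Ndufa1, both missing the test with 75th percentile scaling and in the unscaled table. The cause of the difference was not tested.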

How the results depend on the processing

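With 75th percentile scaling 3 members rose and 40 fell by day 6 in Cl19 (median −0.49, with −0.23 over all tested probes, of which 21.5% rose and 32.7% fell) and 1 rose and 44 fell in 3c3 (median −0.57, with −0.22, 18.9% and 30.3%), 5 were lower in primary smooth muscle than each line (31.0% and 31.4% of all tested probes), 0 differed between the lines in either direction, and Atp5l in 3c3 had the other sign (−0.0114, adjusted p = 0.958). In the unscaled log2 values of the authors, 2 and 3 members were higher in primary smooth muscle than Cl19 and 3c3 (6.71% and 7.59% of all tested probes) and 55 and 51 lower (74.1% and 72.2%), and 0 differed between the lines. Normexp gave 5 higher and 3 lower differences between the lines, no filter 0 lower. The methods' t-test with Benjamini-Hochberg adjustment gave 2 higher in 3c3 on day 6, against 14.7% of all tested probes. The area method, which called 17.4% and 9.72% of all tested probes, called 1 member over time in each line, Cox6b2 in both. Without Cl19 day 2 replicate 1, chosen after seeing the data, 4 members rose by day 2 in Cl19. In every case the cause was not tested.

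With a block for slide 6 members had a higher and 5 a lower day 6 change in Cl19 than in 3c3, and of the 62 tested day 6 changes of named genes 55 kept their call and 7 passed that had not. Beside this, 37 of the 62 kept direction and call with 75th percentile scaling, 49 in the unscaled table and 58 with normexp.

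Leaving out 1 array or slide gave 19 to 42 members changed over time in Cl19 and 20 to 44 in 3c3. By day 6 it gave 5 to 9 higher and 18 to 23 lower in Cl19, with medians from −0.25 to −0.12, and 2 to 6 higher and 18 to 29 lower in 3c3, with medians from −0.38 to −0.21. Against primary smooth muscle it gave 40 to 47 higher and 8 to 10 lower for Cl19 and 48 to 55 and 8 to 9 for 3c3, and between the lines 0 to 4 higher and 0 to 2 lower. The count over time was 19 without slide 1 and 20 without slide 3 of Cl19, and 25 without slide 2 and 20 without slide 3 of 3c3. The day 6 rises in Cl19 numbered 6 without day 0 replicate 1, without day 6 replicate 2 or without slide 2, and 5 without slide 3, and in 3c3 3 without day 0 replicate 1 or slide 1 and 2 without slide 3. The difference between the lines was called higher for 4 members without 3c3 day 6 replicate 1 and lower for 2 without Cl19 day 6 replicate 3 or 3c3 day 6 replicate 2. All these counts stand without the share of all tested probes in the same fits, and show only how far the counts moved.

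On depth, 5 tested members were not well above background on all arrays. The 3c3 replicate 3 slide had a negative-control median of 62.5 to 79.0 signal units, against 44.9 to 48.0 on the other arrays, and its part in this was not tested.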
